A study of Mus musculus with 8 samples.

Results

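The ventromedial nucleus (VMH) and the dorsomedial nucleus (DMH) of the mouse hypothalamus were compared on 4 of the 8 arrays of the series, 2 for each nucleus. The arrays were chosen by their titles alone, VMH1 and VMH2 against DMH1 and DMH2, and the arrays of the arcuate nucleus (Arc) and the lateral hypothalamus (LH) stayed out of the test. Tissue of both nuclei came from C57BL/6 females (C57BL/6J in the methods) at 3 months of age and was cut by laser microdissection. The labels give no transgene, allele, or treatment for any of them. The methods name 2 mice, and the labels do not say which arrays share a mouse, so p-values measure the spread between these samples only. Total RNA of a cut nucleus holds the RNA of all its cells, neurons, glia, and vessels, and was amplified as a whole transcriptome before labeling. The labels name the DMH as a whole, with no split by its compact, dorsal, and ventral divisions.

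The VMH and the DMH lie next to each other in the middle of the tuberal hypothalamus. Most VMH neurons release glutamate, arise from progenitors that switch on the nuclear receptor gene *Nr5a1* (steroidogenic factor 1), and are known for roles in satiety, glucose balance, defensive behavior, and mating. DMH neurons are a mixture of GABA and glutamate neurons with many neuropeptides, and are known for roles in feeding, body temperature, and the daily timing of sleep and meals. In bulk tissue such as this, fewer cells of a type and less RNA per cell cannot be told apart.

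Of 55681 probes on the array, 28287 were tested, namely those flagged by the scanner software as well above background on both VMH arrays, on both DMH arrays, or on all 4. A scaled signal is the processed intensity of a probe divided by the 75th percentile of its array, with the divisors set to a geometric mean of 1, and it has no unit. The 75th percentile was 829 on VMH1, 1239 on VMH2, 1150.3 on DMH1, and 1196 on DMH2 before scaling. The share of spots well above background was 48.4% to 52.7%. The correlation of log2 signals over the tested probes, a description since probes are not independent, was 0.978 between the VMH arrays, 0.972 between the DMH arrays, and 0.946 to 0.958 between arrays of different nuclei. The median log2 difference, VMH minus DMH, was 0.02 after scaling and -0.19 before it, and differences below are given relative to the scaled median.

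Differences were tested with limma, and a probe was called at an adjusted p under 0.05 (Benjamini-Hochberg, over the 28287 probes). By this test 377 probes were higher in the VMH, 1.33% of those tested, and 312 were higher in the DMH, 1.1%. They belong to 259 and 215 named genes, and no gene had called probes in both directions. With 1 probe per gene, the tested probe with the highest mean signal, 228 of 12890 genes (1.77%) were higher in the VMH and 190 (1.47%) in the DMH, and these percentages are the background for the gene counts below. For the 247 called probes higher in the VMH that were well above background on all 4 arrays, the log2 difference ran from 1.20 to 4.54, and for the 133 such probes higher in the DMH from 1.21 to 6.95. Of these, 76 and 58 differed by at least 4-fold. Many called probes were not well above background on either array of the lower nucleus, 107 of those higher in the VMH and 134 of those higher in the DMH. A ratio of means of at least 10 was met by 44 probes higher in the VMH (0.156%), all of them called, and by 59 higher in the DMH (0.209%), of which 57 were called. These counts depended on how dim signals were treated. They were 4 and 13 with the background corrected by normexp (a model of signal plus noise), 19 and 28 when each signal under the lowest one well above background on its array took that level (dim signals raised), and 7 and 11 among probes well above background on all 4 arrays. Of all calls 54.7% were higher in the VMH. Without scaling 395 probes were higher in the VMH and 682 in the DMH, and that share was 36.7%. With 1 array left out and its partner alone in the nucleus, assumed to vary like the other nucleus, the calls were 166 without VMH1 and 206 without VMH2 on the side of the VMH, and 204 without DMH1 and 200 without DMH2 on the side of the DMH. Without VMH1 and without VMH2 the calls higher in the DMH were 227 and 380, so that only 42.2% and 35.2% of calls lay higher in the VMH and the balance turned. The count of 44 became 89 without VMH1, 74 without DMH1, and 93 without DMH2, and the count of 59 became 93 without DMH1 and 111 without DMH2. Signals of the 2 nuclei without overlap are no rarity with 2 arrays a side and occurred in the VMH direction for 24.4% and in the DMH direction for 22.1% of the probes.

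**Figure D1:**
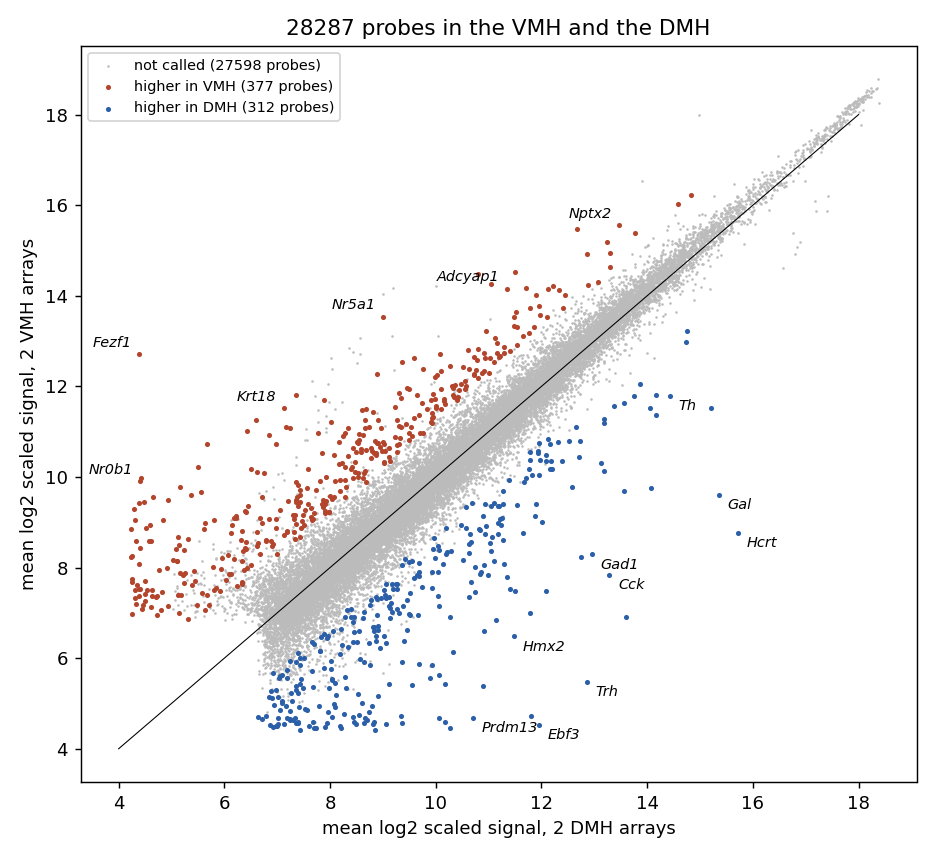
Mean log2 scaled signal of the 28287 tested probes on the 2 VMH arrays (vertical axis) against the 2 DMH arrays (horizontal axis), with the 377 probes called higher in the VMH in red, the 312 called higher in the DMH in blue, the others in gray, and the line of equal signal in black. Fezf1 and Nr5a1 lie far above the line, and Hcrt, Gal, Trh, and Ebf3 far below it.

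The transcription factor genes *Fezf1*, *Nr5a1*, *Nr0b1*, and *Sox14* were much higher on the VMH arrays than on the DMH arrays, while other factors of the VMH list, *Foxp2*, *Esr1*, and *Lmo3* among them, were not called higher in the VMH. *Fezf1* (probe A_51_P347619), a zinc finger repressor of the developing VMH and forebrain, had scaled signals of 7587 on VMH1 and 5982 on VMH2, and 20.7 on DMH1 and 20.9 on DMH2. Its DMH signals lay at the floor of the arrays and were not well above background, so only a lower bound of the ratio holds, at least 72.0-fold. For such a bound, each dim array was raised to the lowest value that any probe well above background had on it, and the geometric means of the nuclei were compared. *Nr5a1* (A_55_P2076560) had 12163 on VMH1 and 11694 on VMH2, and 688 on DMH1 and 383 on DMH2. Both VMH arrays stood far above both DMH arrays, where the gene was still measured, and the log2 difference was 4.54 (SE 0.32, adjusted p = 0.00352). *Nr0b1*, the nuclear receptor known as DAX-1 that represses NR5A1 in steroid-forming tissues, read 958 and 958 on the VMH arrays and 22 and 20.5 on the DMH arrays, at least 10.2-fold higher. *Sox14* read 563 and 762 against 90.7 and 83.4 (at least 7.0-fold). For these 4 genes the VMH arrays differed from each other by far less than from the DMH arrays, and the nuclei did not overlap. The adjusted p was 0.000829 for *Fezf1*, 0.00137 for *Nr0b1*, and 0.00601 for *Sox14*. These p-values rest on DMH signals not well above background, and the 3 genes entered the test through the VMH alone, so the bounds are the firmer values.

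Of a list of 38 genes known or reported for the VMH, 35 were tested, 20 were higher in the VMH, and 3 were higher in the DMH. The median difference of the tested members was 2.08 (1.82 with members that have only a bound set to it), against 0.04 over all 12890 genes. A gene measured in 1 nucleus only entered the test through the nucleus in which it was high, so here and below the counts and medians of tested members describe a list and support nothing. Beside the factors above, the 20 held the peptide gene *Adcyap1*, the guanine deaminase gene *Gda*, the synaptic genes *Cbln1*, *Nptx1*, and *Nptx2*, the axon guidance gene *Slit3*, the neurotrophin gene *Bdnf*, and the cannabinoid receptor gene *Cnr1*. With each array left out in turn, 16 to 20 of the list were higher in the VMH. *Gda* read 21279 on VMH1 and 18259.7 on VMH2, and 1737 on DMH1 and 2578 on DMH2. *Krt18*, a keratin of simple epithelia, read 2596 on VMH1 and 3305 on VMH2, and 140.2 on DMH1 and 139 on DMH2. Both were measured on all 4 arrays, and the VMH was 9.31-fold higher for *Gda* (adjusted p = 0.00602) and 21.0-fold higher for *Krt18* (adjusted p = 0.00179). The receptor gene *Qrfpr*, for the peptide QRFP, read 2846 and 1495 in the VMH, and 52.2 and 143 in the DMH, where only DMH2 was well above background. VMH1 was the higher of the VMH arrays for *Qrfpr*, and the difference between nuclei was 4.58 (SE 0.54, adjusted p = 0.0148). The smallest called difference of the list was that of *Cnr1*, 1.32 (SE 0.21, adjusted p = 0.0393).

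The 3 members higher in the DMH were *Foxp2*, *Tafa4*, and *Dlk1*. *Foxp2*, a forkhead factor found in some VMH neurons, read 29.9 and 19.0 on the VMH arrays and 727 and 593 on the DMH arrays, at least 6.32-fold higher in the DMH. *Dlk1*, a membrane protein of the Notch ligand type, read 8627 and 7558 against 25694 and 28992. *Tafa4*, a secreted chemokine-like protein, read 65.0 and 88.0 against 316 and 333. For all 3 genes the DMH arrays lay above the VMH arrays without overlap. Other members of the list did not pass the test. *Lmo3*, a LIM-domain cofactor, read 4365 and 4137 in the VMH and 647 and 1435 in the DMH, a difference of 2.14 (SE 0.39, adjusted p = 0.0573), and passed without DMH2, at an adjusted p of 0.0115. The estrogen receptor gene *Esr1*, which marks the ventrolateral VMH, had 620.4 and 316 in the VMH and 496 and 498 in the DMH, with overlap of the nuclei and a difference of -0.17 (SE 0.35, adjusted p = 0.874). *Tac1*, the substance P precursor gene, read 10309 and 9184 in the VMH and 4124 and 4605 in the DMH (difference 1.16, adjusted p = 0.0585). The vesicular glutamate transporter gene *Slc17a6* read 8341 and 10588 in the VMH and 3270.3 and 5079 in the DMH (difference 1.21, adjusted p = 0.123). For *Tac1* and *Slc17a6* both VMH arrays were the higher ones. With 1 array left out, several calls of this list did not hold, among them *Cnr1* (adjusted p up to 0.165 without DMH1), *Bdnf* (0.0837 without VMH1), *Dlk1* (0.0663 without DMH2), *Icam5* (0.0669 without VMH1), and *Ldb2* (0.0693 without VMH1). That of *Bdnf* was also lost with all 8 arrays in the fit (0.0763).

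Genes that the study listed for the VMH had been chosen on these same arrays, by the ratio of the VMH signal to that of the other nuclei, so their direction here is no independent evidence. The copy of that list used here held 14 genes, fewer than the paper counts for the VMH, so it is not complete. Each of the 14 was called higher in the VMH than in the DMH, also with any 1 array left out. They differed in how the DMH read. *Nr5a1*, *Gda*, and *Krt18* were measured on both DMH arrays, *Qrfpr* on 1, and the other 10 on neither. Among the 10, *Ccnjl*, a cyclin-like gene, read 1003 and 1011 against 22.4 and 20.6 (at least 10.8-fold), *Itpka*, an inositol trisphosphate kinase gene, 804 and 814 against 32.5 and 67.9 (at least 8.64-fold), and the keratin gene *Krt9* 639 and 806 against 18.8 and 49.1 (at least 7.67-fold). The small GTPase gene *Rab38* (695 and 827 against 26.7 and 23.3), *Mgst2* of glutathione metabolism (603 and 396 against 22.6 and 25.4), *C130093G08Rik* (764 and 516 against 19.3 and 19.99), and *C030009J22Rik* (308 and 234 against 21.5 and 20.1) had the same form, with both DMH arrays near the floor. Their bounds were 8.10, 5.22, 6.71, and 2.87.

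By size alone, further genes led the VMH. Among probes measured on all 4 arrays, *Nr5a1* and *Krt18* came first, followed by *Retn*, *H2-Q1*, *Lbhd2*, and *Cdh4*. *Retn*, which encodes the hormone resistin, read 2119 on VMH1 and 2306 on VMH2, and 111 on DMH1 and 187 on DMH2, a difference of 3.94 (SE 0.30, adjusted p = 0.00478), and its brighter probe, measured on 1 DMH array, gave 4.66. *Cdh4*, the gene of R-cadherin, read 4934 and 4918 against 439 and 507, a difference of 3.38 (SE 0.21, adjusted p = 0.0025). Its brightest probe read 4990.3 and 7067 against 569.9 and 751, a difference of 3.18. For both genes each VMH array was many times each DMH array on either probe. *H2-Q1*, a class I histocompatibility gene, had a difference of 3.81 (SE 0.23, adjusted p = 0.00248), but its near-identical neighbors can share hybridization and the value cannot be given to 1 gene. *Lbhd2* had 3.68 (adjusted p = 0.00224). Among probes not well above background on either DMH array, *Umodl1* was at least 18-fold and *Lamb3*, a laminin chain gene, at least 12.7-fold higher. *Umodl1* read 1759 and 1619 in the VMH and 49.7 and 51.6 in the DMH. *Lamb3* read 1241 and 1129.7 in the VMH and 22.2 and 93.3 in the DMH, and its call did not hold without VMH1 or VMH2 (adjusted p up to 0.0712 without VMH1).

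**Figure D2:**
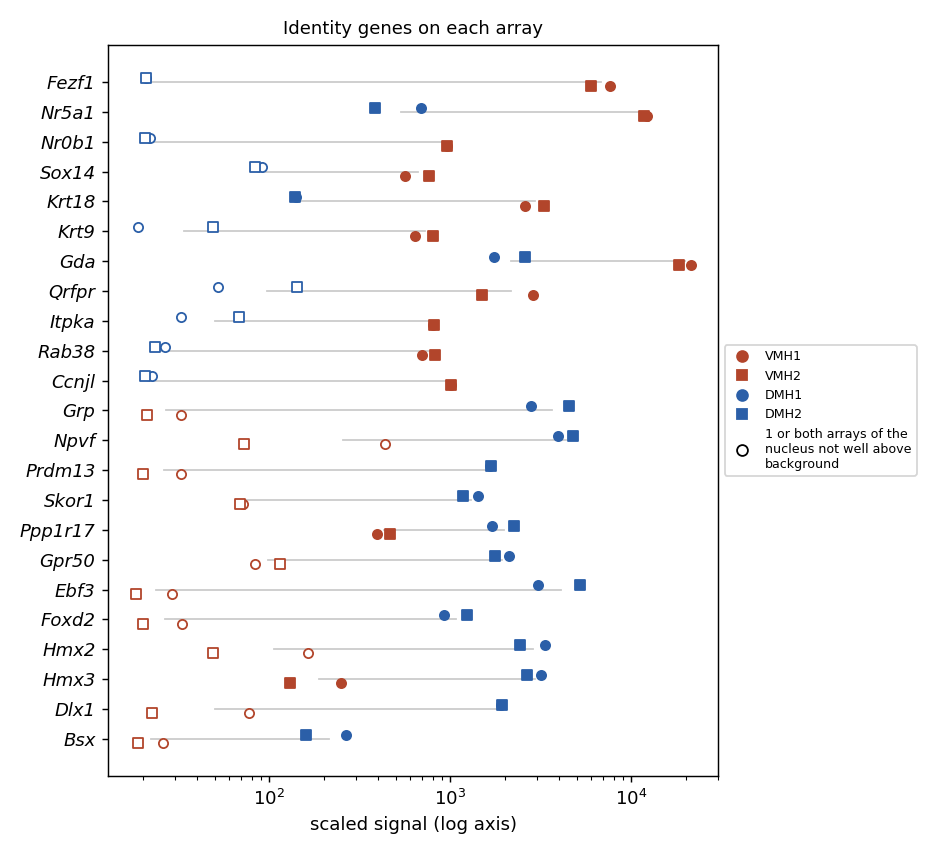
Scaled signals (log axis) of 23 called genes of the identity, study, and transcription factor lists on each of the 4 arrays, VMH in red and DMH in blue, circles for replicate 1 and squares for replicate 2, with a gray line between the means of the nuclei. Open symbols mark a nucleus in which 1 or both arrays were not well above background. In every gene shown both arrays of one nucleus lie above both arrays of the other, which is no further evidence since only called genes are drawn.

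Of 33 genes known or reported for the DMH, 29 were tested, 19 were higher in the DMH, and 0 were higher in the VMH. The median difference of the tested members was -3.02 (-2.20 with bounds), and 16 to 20 were higher in the DMH with each array left out in turn. *Prdm13* (A_55_P2044897), a zinc finger regulator of the PRDM family, had 1661 on DMH1 and 1667 on DMH2, and 32.6 on VMH1 and 20.1 on VMH2. *Grp* (A_51_P356055), the precursor gene of gastrin-releasing peptide, had 2773 on DMH1 and 4548 on DMH2, and 32.6 on VMH1 and 21.1 on VMH2. *Skor1* (A_55_P2000434), a transcriptional corepressor gene, had 1415 on DMH1 and 1172 on DMH2, and 71.3 on VMH1 and 69.3 on VMH2. None of the 3 was well above background in the VMH, and the DMH was at least 16.0-fold, 34.2-fold, and 12.4-fold higher. The DMH arrays were nearly equal for *Prdm13*, while *Grp* was higher on DMH2. *Npvf*, the gene of the RFamide-related peptides, had 3943 on DMH1 and 4786 on DMH2, and 438 on VMH1 and 72.8 on VMH2, where only VMH1 was well above background. Both DMH arrays were far above the VMH, but the spread of the VMH arrays left a difference of 4.6 (SE 0.78, adjusted p = 0.0468), which did not pass without DMH1 or DMH2 (adjusted p up to 0.1 without DMH2) or with all 8 arrays in the fit (adjusted p = 0.155). These 4 genes are those the study listed for the DMH on the same arrays, so their direction is no independent evidence.

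Other genes known or reported for the DMH, some for its ventral division, were called in part. *Gpr50*, an orphan receptor gene of the melatonin receptor family, read 2097 and 1774 in the DMH and 83.5 and 114 in the VMH, where only VMH2 was well above background, a difference of 4.31 (SE 0.25, adjusted p = 0.00235). *Sulf1*, a heparan sulfate sulfatase gene, read 2188 and 2509 against 770.5 and 562, a difference of 1.83 (SE 0.25, adjusted p = 0.0223). *Rorb*, a nuclear receptor gene of the ROR family, read 2299 and 2546 against 1227 and 988, and *Pcsk5*, a proprotein convertase gene, 324 and 329.7 against 197 and 193. *Gpr50* and *Sulf1* rose in the DMH, whereas *Rorb* (1.14, SE 0.23, adjusted p = 0.0725) and *Pcsk5* (0.74, SE 0.20, adjusted p = 0.164) did not pass, although their DMH arrays lay above their VMH arrays. The call of *Sulf1* did not hold with 1 array left out (adjusted p up to 0.0804 without DMH2). The orexin receptor gene *Hcrtr2* was not well above background on both arrays of either nucleus and was not tested. *Nkx2-1*, a homeobox gene of the whole tuberal hypothalamus, read 4902 and 2943 in the VMH and 2173 and 1794 in the DMH, and *Sirt1*, a NAD-dependent deacetylase gene, 1299 and 483 in the VMH and 736 and 675 in the DMH. Both VMH arrays were above both DMH arrays for *Nkx2-1* (difference 0.94, SE 0.30, adjusted p = 0.232), and the nuclei overlapped for *Sirt1* (difference 0.17, SE 0.46, adjusted p = 0.909).

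Outside this list, *Asb4*, an ankyrin repeat gene of hypothalamic neurons, read 16027 and 18678 in the DMH and 1007 and 748 in the VMH, a difference of 4.32 (SE 0.25, adjusted p = 0.00229). Its mean was also high in the Arc, at 24587, and in the LH, at 12643. The other called members of the DMH list were *Ppp1r17*, *Brs3*, *Cartpt*, *Th*, *Bsx*, *Prlhr*, *Dlx1*, *Dlx2*, *Hmx2*, *Hmx3*, *Cck*, *Gal*, and *Trh*. Of these, *Cartpt* and *Th* had higher means in the Arc (43884 and 33147) than in the DMH (14938 and 22027). *Ppp1r17*, a protein phosphatase inhibitor gene expressed in DMH neurons, read 1708 and 2238 against 394 and 464, a difference of 2.19 (SE 0.24, adjusted p = 0.0121). *Brs3*, a bombesin-like receptor gene, read 549 and 699 against 147 and 124, with 1 of the 2 VMH arrays not well above background, a difference of 2.20 (SE 0.24, adjusted p = 0.0115). *Prlhr*, the receptor gene of prolactin-releasing hormone, read 427 and 538 against 44.3 and 29.1, at least 4.61-fold higher. All 3 had both DMH arrays above both VMH arrays. *Lepr*, the leptin receptor gene, read 1267 on DMH1 and 181 on DMH2, against 191 and 254 in the VMH, so its 2 DMH arrays fell on both sides of the VMH arrays and its difference was 1.12 (SE 0.85, adjusted p = 0.61). With 1 DMH array left, the log2 difference of *Lepr*, VMH minus DMH, was -2.525 without DMH2 and turned to 0.29 without DMH1. *Nts*, the neurotensin gene, read 246 and 427 against 69.2 and 22.9, not well above background in the VMH, which puts the DMH at least 3.11-fold higher. It did not pass (adjusted p = 0.0585). Without VMH1 its log2 difference, VMH minus DMH, was -3.82, set by the 1 VMH signal left, which was not well above background.

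The sequences just upstream of 5 of these genes are shown because these genes were not well above background on either array of the lower nucleus, 2 in the DMH and 3 in the VMH. Each line gives the 250 bases before the annotated start of the gene, 5′ to 3′ on the strand of the gene, from RefSeq (GRCm38.p6). Capitals mark the nuclear receptor half-site AGGTCA or its reverse complement TGACCT, which is the core of the site that NR5A1 and other nuclear receptors bind. The NK2 homeobox site CAAGTG (reverse CACTTG) and the homeodomain core TAATTA were also searched on both strands and these letters occur in none of the 5 windows. The fragment of the *Prdm13* promoter that the study examined for NK2 sites was longer than this window and was not analysed here.
Fezf1 (chr6:23248265-23248514, minus strand): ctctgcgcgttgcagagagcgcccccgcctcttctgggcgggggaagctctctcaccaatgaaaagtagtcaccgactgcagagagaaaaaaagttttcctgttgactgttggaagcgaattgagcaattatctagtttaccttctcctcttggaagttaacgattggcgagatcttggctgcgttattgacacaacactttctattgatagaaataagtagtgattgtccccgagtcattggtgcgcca
Nr0b1 (chrX:86191525-86191774, plus strand): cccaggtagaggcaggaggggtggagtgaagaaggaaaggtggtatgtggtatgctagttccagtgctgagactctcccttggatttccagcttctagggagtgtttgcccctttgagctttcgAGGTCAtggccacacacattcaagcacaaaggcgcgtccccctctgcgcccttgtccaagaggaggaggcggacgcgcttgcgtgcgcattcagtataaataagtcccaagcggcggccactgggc
Prdm13 (chr4:21685964-21686213, minus strand): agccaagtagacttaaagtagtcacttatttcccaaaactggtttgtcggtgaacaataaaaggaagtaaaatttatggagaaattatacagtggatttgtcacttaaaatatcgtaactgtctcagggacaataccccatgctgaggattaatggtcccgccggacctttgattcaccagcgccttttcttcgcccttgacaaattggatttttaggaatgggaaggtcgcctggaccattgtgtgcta
Trh (chr6:92244651-92244900, minus strand): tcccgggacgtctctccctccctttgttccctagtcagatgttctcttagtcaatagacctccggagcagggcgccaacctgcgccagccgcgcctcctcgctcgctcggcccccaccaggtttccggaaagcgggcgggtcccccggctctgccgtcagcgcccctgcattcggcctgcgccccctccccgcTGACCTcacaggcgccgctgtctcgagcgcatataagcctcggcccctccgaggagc
Dlx1 (chr2:71529195-71529444, plus strand): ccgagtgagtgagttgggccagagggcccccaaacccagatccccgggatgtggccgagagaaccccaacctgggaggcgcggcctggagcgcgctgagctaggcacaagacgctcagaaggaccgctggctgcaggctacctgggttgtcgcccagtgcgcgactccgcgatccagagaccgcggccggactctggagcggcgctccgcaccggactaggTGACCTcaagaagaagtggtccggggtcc
The half-site begins 126 bases before the start of *Nr0b1*, 57 before that of *Trh*, and 29 before that of *Dlx1*, and the windows of *Fezf1* and *Prdm13* do not hold these letters. It was present in the windows of 29 of 163 genes higher in the VMH (17.8%), 15 of 138 genes higher in the DMH (10.9%), 1367 of 10297 genes tested (13.3%), and 4260 of 27025 genes in the table (15.8%). CAAGTG was present for 18 of 163 (11.04%), 22 of 138 (15.9%), 1183 of 10297 (11.49%), and 3573 of 27025 (13.2%). TAATTA was present for 7 of 163 (4.29%), 6 of 138 (4.35%), 325 of 10297 (3.16%), and 1527 of 27025 (5.65%). These shares are a description of letters in 1 window per start site and were not tested.

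Most of the neuropeptide genes that were called were higher in the DMH. Of 65 such genes, 41 were tested, 13 were higher in the DMH (9 to 12 with each array left out in turn), and 2 were higher in the VMH. *Trh*, the gene of thyrotropin-releasing hormone, had 5586 on DMH1 and 9818 on DMH2, and 45.5 on VMH1 and 43.8 on VMH2, not well above background, which puts the DMH at least 71.3-fold above the VMH. *Gal*, the gene of galanin, had 40669 on DMH1 and 43021 on DMH2, and 1147 on VMH1 and 528 on VMH2. *Cck*, the gene of cholecystokinin, had 9030.4 on DMH1 and 11004 on DMH2, and 473 on VMH1 and 111 on VMH2. Each of these peptide genes was bright on both DMH arrays, and in the VMH *Gal* and *Cck* were lower on VMH2 than on VMH1. The log2 difference was 5.75 (SE 0.38, adjusted p = 0.003) for *Gal* and 5.45 (SE 0.65, adjusted p = 0.015) for *Cck*, with an adjusted p of 0.0766 and 0.269 when all 8 arrays shared 1 fit. *Penk* (25470.4 and 29651 against 10384 and 8746), *Cartpt* (15306 and 14569.9 against 4463 and 3989), and *Pnoc* (519 and 614 against 166 and 116), the genes of enkephalin, CART, and nociceptin, rose in the DMH by 1.53, 1.82, and 2.02. These 3 were measured on both arrays of both nuclei. With 1 array left out, the highest adjusted p was 0.117 without DMH2 for *Penk*, 0.054 without DMH1 for *Cartpt*, and 0.0647 without DMH2 for *Pnoc*, so these calls did not hold.

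Other called peptide genes are textbook markers of neighboring areas. *Hcrt*, the orexin gene of lateral hypothalamic neurons, read 55939.9 on DMH1 and 51283 on DMH2, and 684 on VMH1 and 275 on VMH2, a difference of 6.95 (SE 0.43, adjusted p = 0.0025), the largest among probes measured on all 4 arrays. Its mean was 111361 in the LH and 215 in the Arc. *Pmch*, the gene of melanin-concentrating hormone, another marker of the LH, read 16253 and 11631 in the DMH and 3938 and 3139.7 in the VMH, with an LH mean of 17328. The DMH was the higher nucleus for both, and the call of *Pmch* did not hold with 1 array left out (adjusted p up to 0.0694 without DMH1). *Tac2*, the neurokinin B gene, read 3436 and 3601 against 124 and 131, and *Ghrh*, the gene of growth hormone-releasing hormone, 1902 and 3269.8 against 349 and 209, with Arc means of 12151 and 13434. *Crh*, the gene of corticotropin-releasing hormone, read 2026 and 2543 against 265 and 49.4, where VMH2 was not well above background, and its adjusted p of 0.0479 rose to 0.105 without DMH2. The methods describe a qRT-PCR check of the cut nuclei for neighboring tissue with *Agrp*, *Nr5a1*, *Hcrt*, and *Crh*, and state that no contamination was found. The qRT-PCR data were not analysed here. The part of tissue from outside the DMH in these array values was not tested.

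In the other direction, *Adcyap1*, the gene of the peptide PACAP, had 17586 on VMH1 and 18972 on VMH2, and 2399 on DMH1 and 2821 on DMH2. The VMH was 7.02-fold higher (adjusted p = 0.00481). *Pomc*, the melanocortin precursor gene of Arc neurons, read 4049 and 3865 in the VMH and 1554 and 1447 in the DMH, with an Arc mean of 41756, and its call did not hold with 1 array left out (adjusted p up to 0.123 without DMH2). For both genes the VMH arrays lay above the DMH arrays.

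**Figure D3:**
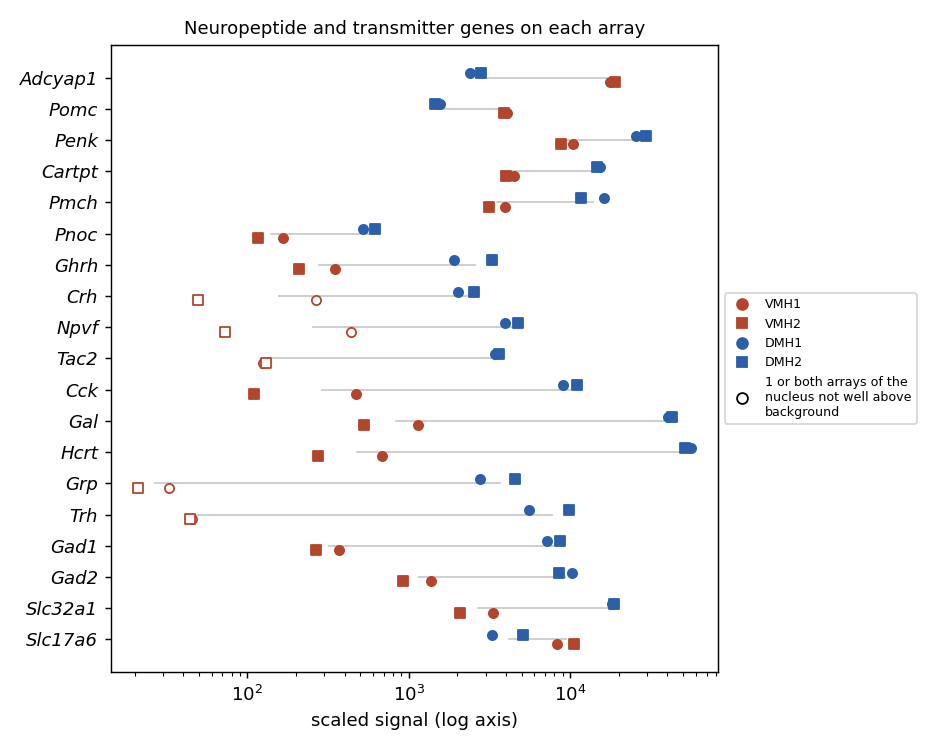
Scaled signals (log axis) of 15 called neuropeptide genes and of 4 transmitter genes on each of the 4 arrays, VMH in red and DMH in blue, circles for replicate 1 and squares for replicate 2, with a gray line between the means of the nuclei. Open symbols mark a nucleus in which 1 or both arrays were not well above background, and the peptide genes other than Adcyap1 and Pomc lie higher in the DMH.

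All the genes of GABA neurons that were called were also higher in the DMH. Of 20 genes, 16 were tested, 8 were higher in the DMH, and 0 were higher in the VMH. *Gad1*, which encodes a GABA-forming enzyme, had 7194 on DMH1 and 8709.7 on DMH2, and 372 on VMH1 and 266 on VMH2. *Gad2*, the gene of the second such enzyme, had 10205 on DMH1 and 8475 on DMH2, and 1382 on VMH1 and 923 on VMH2. *Slc32a1*, the vesicular GABA transporter gene, had 18143 on DMH1 and 18672 on DMH2, and 3306 on VMH1 and 2084 on VMH2 on its brightest probe. The VMH still gave a measured signal for all 3, lower on VMH2 than on VMH1, and the differences were 4.66 (SE 0.26, adjusted p = 0.00224) for *Gad1*, 3.04 (SE 0.27, adjusted p = 0.00759) for *Gad2*, and 2.81 (SE 0.28, adjusted p = 0.00967) for *Slc32a1*. A second probe of *Slc32a1* read 7126 and 6590 against 315 and 288, a difference of 4.51. By their brightest probes, *Gad1*, *Gad2*, and *Slc32a1* had means of 7343, 7225, and 16932 in the Arc. In the LH their means were 9577, 11953.5, and 22661. The others included the homeobox genes *Dlx1*, *Dlx2*, *Dlx5*, and *Dlx6*, which act in the formation of GABA neurons. Of 13 glutamate neuron genes, 10 were tested and 1 was called, *Nrn1*, a neuritin gene that read 1208 and 1245 in the DMH and 26.1 and 18.7 in the VMH (at least 11.8-fold higher in the DMH). *Nrn1* is a growth-linked surface protein rather than a part of glutamate release.

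Among homeobox transcription factors, which set the identity of neurons in development, most of those called were higher in the DMH. Of 100 such genes, 60 were tested, 15 were higher in the DMH, and 3 were higher in the VMH, with a median of -0.32. *Dlx1* read 1895 and 1921 in the DMH and 77.2 and 22.5 in the VMH, at least 18.4-fold higher. *Hmx2* and *Hmx3*, neighboring genes that act in the formation of GHRH neurons, read 3329.8 and 2431 against 164 and 48.8, and 3185 and 2660.1 against 249 and 129.7, with *Hmx2* not well above background on VMH2. *Gsx1* read 762 and 746 against 51.7 and 35.2, at least 7.25-fold. For all 4 both DMH arrays were above both VMH arrays. The difference was 4.99 (SE 0.56, adjusted p = 0.0128) for *Hmx2* and 4.02 (SE 0.35, adjusted p = 0.00658) for *Hmx3*. The remaining called members included *Lhx1*, *Lhx5*, *Lhx9*, *Pou3f4*, *Otp*, *Bsx*, *Hopx*, *Dlx2*, *Dlx5*, and *Dlx6*, with log2 differences of 1.74 to 2.23 for *Lhx5*, *Dlx5*, and *Otp*, each measured on 1 VMH array, and bounds of 1.99-fold (*Bsx*) to 7.89-fold (*Dlx2*) for the others. Those higher in the DMH numbered 10 without VMH1 and 11 to 14 without each of the others. Those higher in the VMH included *Nkx2-9* (at least 1.71-fold) and *Six3*, which read 1028 and 1299 against 139 and 265. The calls of *Six3* (0.0637 without VMH2), *Otp* (0.0611 without DMH1), and *Lhx9* (0.0944 without VMH1) did not hold with 1 array left out, where the value given is the highest adjusted p. The calls of *Lhx5* (0.0674 without VMH1), *Hopx* (0.0612 without DMH2), and *Dlx5* (0.0586 without DMH2) did not hold either, and that of *Lhx9* was also lost with all 8 arrays in the fit (adjusted p = 0.078). With dim signals raised, *Nkx2-9* (0.239), *Bsx* (0.207), and *Hopx* (0.0621) did not pass, nor did *Nkx2-9* with normexp background correction (0.0682). *Dlx1as*, the antisense gene at the *Dlx1* locus, has its own probe, which was also called higher in the DMH.

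Of 141 other transcription factors, 99 were tested, 9 were higher in the DMH, and 5 were higher in the VMH, with a median of -0.12. *Ebf3*, a helix-loop-helix factor gene, had 3043 on DMH1 and 5175 on DMH2, and 29.1 on VMH1 and 18.3 on VMH2, at least 38.2-fold higher in the DMH. *Foxd2*, a forkhead gene, read 925 and 1230.1 against 32.8 and 20.05, at least 10.3-fold. Both VMH arrays were near the floor for both genes. The mean of *Ebf3* was also high in the LH, at 3553, and *Foxd2* had 561 there. The 5 higher in the VMH were *Fezf1*, *Nr0b1*, *Nr5a1*, *Sox14*, and *Ldb2*, a cofactor of LIM-domain proteins that read 15055 and 13152 against 3636 and 4378 (difference 1.82, adjusted p = 0.0167). The call of *Ldb2* did not hold with 1 array left out (adjusted p up to 0.0693 without VMH1).

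Receptors of neuropeptides were split between the nuclei, with 8 higher in the VMH and 9 higher in the DMH among 53 tested of 83 genes, and a median of -0.02. In the VMH, *Sstr3*, a somatostatin receptor gene, read 6253 and 6471 against 737 and 802, a difference of 3.05 (SE 0.21, adjusted p = 0.00303). *Cckbr*, the gene of the brain cholecystokinin receptor, read 2790.2 and 2999.7 against 356 and 473, a difference of 2.82 (SE 0.24, adjusted p = 0.00613). *Hcrtr1*, the gene of an orexin receptor, read 4169 and 3837 against 563 and 869, a difference of 2.52 (SE 0.27, adjusted p = 0.0118). Each was measured on all 4 arrays without overlap. *Nmbr*, for neuromedin B, was at least 5.85-fold and the orphan receptor gene *Gpr149* at least 5.66-fold higher in the VMH. *Mc3r*, a melanocortin receptor gene (1.99, adjusted p = 0.0107), *Crhr2*, a receptor gene of the CRH family (1.95, adjusted p = 0.0121), and *Qrfpr* made up the rest.

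In the DMH, *Calcr*, the calcitonin receptor gene, read 2385 and 3069 against 244 and 139, a difference of 3.88 (SE 0.33, adjusted p = 0.00622). *Ramp3*, whose product turns that receptor into an amylin receptor, read 3607 and 3941 against 892 and 359, a difference of 2.74 (SE 0.43, adjusted p = 0.0374). *Cckar*, the gene of the other cholecystokinin receptor, read 655 and 1363 against 48.0 and 45.9, at least 9.09-fold higher. So the 2 cholecystokinin receptor genes were called in opposite directions, *Cckbr* in the VMH and *Cckar* in the DMH. *Avpr1a*, a vasopressin receptor gene, was at least 5.10-fold, *Prlhr* at least 4.61-fold, and *Grpr*, the receptor gene of gastrin-releasing peptide, at least 2.67-fold higher in the DMH. *Trhr*, the receptor gene of TRH, read 4612 and 4137 against 1616 and 1073 (1.73, adjusted p = 0.0353). *Brs3* and *Gpr50* were the remaining members. The genes of the peptides GRP and TRH and of their receptors *Grpr* and *Trhr* were all higher in the DMH. Of these calls, *Ramp3* and *Trhr* did not hold with 1 array left out, where the adjusted p reached 0.09 without DMH2 for *Ramp3* and 0.113 without DMH1 for *Trhr*.

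Most of the potassium channel genes that were called were higher in the VMH. Of 75 potassium channel genes, 56 were tested, 10 were higher in the VMH, and 2 were higher in the DMH, with a median of 0.36. Markers of neurons in general had a median of 0.46, with both VMH arrays above both DMH arrays for 9 of 12 (background 29.1% of all genes tested) and the reverse for 1 (background 22%), and their part in the values of channel and receptor genes was not tested. *Kcnh3*, a gene of the ether-a-go-go family, read 741 and 645 in the VMH and 21.3 and 20.7 in the DMH, at least 7.39-fold higher. *Kcna1*, the gene of Kv1.1, read 2009.8 and 1846 against 238 and 388, a difference of 2.66 (SE 0.29, adjusted p = 0.0118). *Kcnh7* read 662 and 771 against 167 and 162, a difference of 2.12 (SE 0.21, adjusted p = 0.00987). The VMH arrays lay above the DMH arrays for all 3. With all 8 arrays in the fit the adjusted p was 0.0525 for *Kcna1*, 0.101 for *Kcnh7*, 0.0558 for *Kcnc2*, and 0.0935 for *Kcnt2*, so these 4 calls were lost. With dim signals raised, *Kcnv1* (0.377), *Kcnc2* (0.0668), and *Kcnt2* (0.124) did not pass, and with normexp background correction *Kcnv1* (0.103) and *Kcnb2* (0.146) did not. *Kcnb2*, *Kcnv1*, *Kcns2*, *Kcnk4*, *Kcnmb4*, *Kcnj4*, and *Kcnj5* were also higher in the VMH, with bounds of 1.44-fold for *Kcnv1* and 2.50-fold for *Kcnb2* and log2 differences of 1.38 to 1.94 for the other 5. The count of 10 fell to 5 without VMH1 and 6 without VMH2, and was 7 without DMH1 and without DMH2. A dimmer probe of *Kcnk4* and of *Kcnmb4* pointed the same way and did not pass. *Kcnc2*, the gene of Kv3.2, and *Kcnt2*, of a sodium-activated channel, were at least 2.43-fold and 1.96-fold higher in the DMH. Leaving out 1 array ended several calls, at an adjusted p of up to 0.0916 without VMH1 for *Kcnb2*, 0.081 without VMH1 for *Kcns2*, 0.0548 without DMH2 for *Kcnk4*, 0.132 without VMH1 for *Kcnmb4*, 0.157 without DMH2 for *Kcnj4*, 0.0844 without DMH1 for *Kcnj5*, and 0.0658 without DMH2 for *Kcnc2*.

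Among 40 ionotropic receptor genes, 35 were tested, 5 were higher in the VMH, and 1 was higher in the DMH. *Glra1*, a glycine receptor gene, read 6320.1 and 8264 against 1746 and 1833, a difference of 2.01 (SE 0.23, adjusted p = 0.014). *Glra3*, another glycine receptor gene, read 767 and 930.4 against 170.0 and 177, a difference of 2.28 (SE 0.22, adjusted p = 0.00876). *Gabrd*, the delta subunit gene of GABA receptors outside the synapse, read 654 and 558 against 65.8 and 108, a difference of 2.84 (SE 0.30, adjusted p = 0.0106), with DMH1 not well above background. All 3 genes of inhibitory receptors were higher on both VMH arrays. The alpha subunit genes *Gabra2* (at least 3.60-fold) and *Gabra5* (1.44, adjusted p = 0.0307) went the same way. *Gabre*, the epsilon subunit gene, went the other way, with 5798 on DMH1 and 6415 on DMH2, and 933 on VMH1 and 818 on VMH2, a difference of 2.80 (SE 0.21, adjusted p = 0.00478). Of 65 sodium, calcium, HCN, TRP, and chloride channel genes, 51 were tested and 3 were called, *Cacna2d1* higher in the VMH (2.06) and *Trpc5* and *Asic4* higher in the DMH (1.59 and 2.03). With all 8 arrays in the fit the calls of *Glra3* (adjusted p = 0.0679) and *Asic4* (0.541) were lost. The calls of *Gabra5*, *Cacna2d1*, *Trpc5*, and *Asic4* did not hold with 1 array left out, where the adjusted p reached 0.123 without DMH2 for *Gabra5*, 0.109 without VMH1 for *Cacna2d1*, 0.0994 without DMH2 for *Trpc5*, and 0.0669 without VMH2 for *Asic4*.

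**Figure D4:**
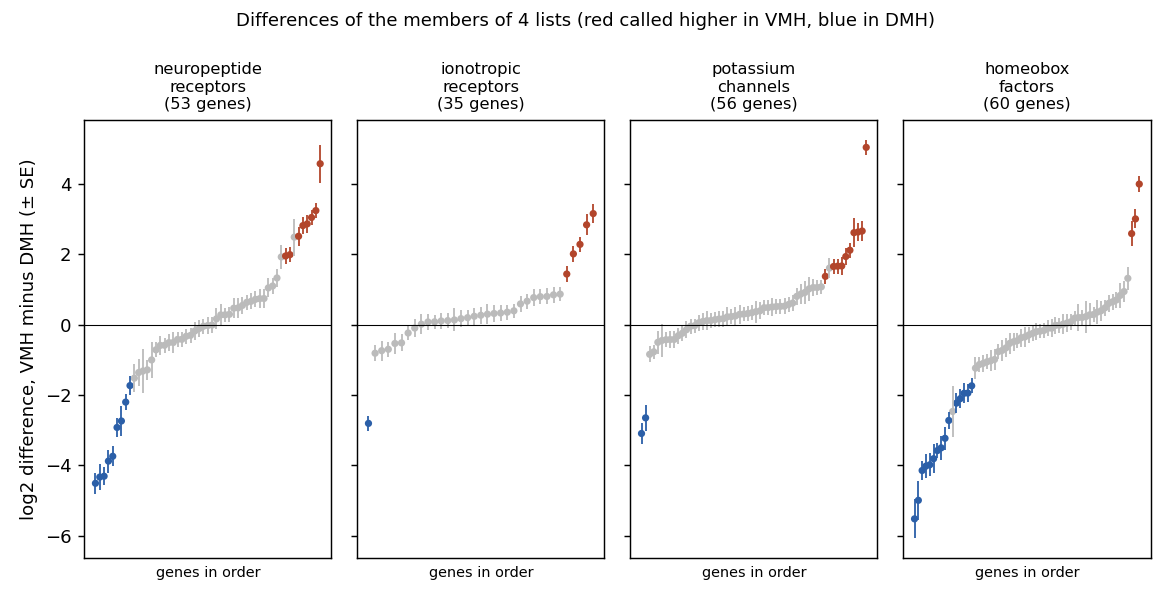
Log2 difference, VMH minus DMH, of each tested member of 4 gene lists in order of the difference, with the limma SE as a bar, red where called higher in the VMH, blue where called higher in the DMH, and gray where not called. The called potassium channels and ionotropic receptors lie mostly above 0, the called homeobox factors mostly below it, and the peptide receptors at both ends.

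Genes that shape connections were called in both directions. Of 69 axon guidance genes, 57 were tested, 5 were higher in the VMH, and 1 was higher in the DMH. Without scaling the balance turned, with 2 higher in the VMH and 4 in the DMH. The 3 slit genes, whose secreted products repel axons, were all higher in the VMH. *Slit3* read 1925 and 2410.3 against 374 and 283, *Slit1* 8585 and 9014 against 3044 and 3427, and *Slit2* 7268 and 6915 against 2526 and 2885. Their differences were 2.73, 1.45, and 1.39, and the smaller ones of *Slit1* and *Slit2* did not pass without scaling or with 1 array left out (adjusted p up to 0.117 and 0.136, both without DMH1), nor *Slit2* with all 8 arrays in the fit (0.825). The count of 5 became 1 or 2 with each array left out. *Sema5a* and *Efnb1* were the other 2, and *Nrp1*, a semaphorin and VEGF receptor gene, read 438 and 465 in the DMH and 111 and 96.7 in the VMH, where 1 array was not well above background, a difference of 2.13 (SE 0.21, adjusted p = 0.00967). Of 38 cadherin genes, 32 were tested and *Cdh4* and *Cdh13* were higher in the VMH. Without scaling 1 cadherin gene was higher in the VMH and 2 were higher in the DMH. Leaving out 1 array also ended the calls of *Sema5a*, *Efnb1*, and *Cdh13*, at an adjusted p of up to 0.145 without DMH1 for *Sema5a*, 0.106 without DMH2 for *Efnb1*, and 0.179 without DMH1 for *Cdh13*.

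Of 64 synaptic organizer and adhesion genes, 56 were tested, 5 were higher in the VMH (3 without VMH1), and 6 were higher in the DMH (4 without DMH2). *Cbln1*, a secreted organizer of synapses, had 18430.4 on VMH1 and 18611 on VMH2, and 2669.5 on DMH1 and 4177 on DMH2, a difference of 2.47 (SE 0.28, adjusted p = 0.0126). *Cbln2*, its paralog, had 8515 on DMH1 and 9417 on DMH2, and 1424 on VMH1 and 1146 on VMH2, a difference of 2.81 (SE 0.23, adjusted p = 0.00557). These 2 cerebellin genes were called in opposite directions. The adjusted p was 0.0824 for *Cbln2* and 0.221 for *Flrt3* with all 8 arrays in the fit. *Ntng2* did not pass with normexp background correction (0.17) or with dim signals raised (0.464). The pentraxin genes *Nptx1* (at least 4.11-fold) and *Nptx2* (40689.6 and 57044 against 11759 and 10972), the telencephalon-type adhesion gene *Icam5* (1.78), and *Tenm2* (1.69) were higher in the VMH. *C1ql3*, of the same C1q family as the cerebellins, read 349 and 356 in the DMH and 30.1 and 19.6 in the VMH (at least 3.39-fold), with *Nrn1*, *Ntng2*, *Nxph3*, and *Flrt3* also higher in the DMH. A bright probe of *Nrxn3*, a neurexin gene, read 38125 on DMH1 and 37871 on DMH2 against 3318 and 2588 in the VMH, while its brightest probe, with a difference of 1.04, did not pass (adjusted p = 0.107). The 2 *Nrxn3* probes thus disagreed in call. With 1 array left out the adjusted p rose to 0.0669 without VMH1 for *Icam5*, 0.0881 without DMH2 for *Tenm2*, 0.0504 without VMH1 for *Ntng2*, 0.117 without DMH2 for *Nxph3*, and 0.103 without DMH2 for *Flrt3*. A dimmer probe of *Flrt3* pointed the same way and did not pass.

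Of 53 monoamine and acetylcholine genes, 30 were tested, 7 were higher in the DMH, and 2 were higher in the VMH. The 7 became 3 without VMH1, 4 without DMH1 or DMH2, and 5 without VMH2. *Th*, the gene of the rate-limiting enzyme of dopamine synthesis, had 20687 on DMH1 and 23366 on DMH2, and 3899.9 on VMH1 and 3242 on VMH2, a difference of 2.63 (SE 0.22, adjusted p = 0.00622). *Gch1*, whose product makes the cofactor of that enzyme, was at least 2.59-fold higher, and *Slc18a2*, the vesicular monoamine transporter gene, read 1983 and 2275 against 715 and 595. *Hdc*, the histamine-forming enzyme gene that marks tuberomammillary neurons, read 3140.2 and 3889 against 1340.4 and 1007. All 4 lay higher on both DMH arrays, and the calls of *Slc18a2* (0.0812 without DMH2) and *Hdc* (0.136 without DMH2) did not hold with 1 array left out. The dopamine receptor gene *Drd2* (1.78) and the serotonin receptor genes *Htr2c* (1.78) and *Htr1d* (at least 3.03-fold) were also higher in the DMH, though 2 dimmer probes of *Htr2c* did not pass. In the VMH, *Chrm5*, a muscarinic receptor gene, read 397 and 557 against 23.8 and 22.3, at least 5.02-fold higher, and *Hrh1*, a histamine receptor gene, 5460.2 and 4516 against 1453 and 1981 (adjusted p = 0.041), while a dimmer probe of *Hrh1* did not pass. The calls of *Hdc* (adjusted p = 0.174) and *Hrh1* (0.0689) were lost with all 8 arrays in the fit, and that of *Gch1* with dim signals raised (0.0674). For other members the adjusted p also rose above the threshold with 1 array left out, to 0.0693 without VMH1 for *Drd2*, 0.0602 without VMH1 for *Htr2c*, and 0.148 without VMH1 for *Hrh1*.

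Genes of signaling inside neurons showed a few calls on each side. Of 29 genes on a calcium-binding list, 26 were tested. *Itpka*, *Calb1*, and *Camkv* were higher in the VMH, and *Necab1* and *S100a10* were higher in the DMH. The list was not of calcium-binding proteins alone, as it held the kinase gene *Itpka* and the kinase-like gene *Camkv*. Without scaling the balance turned, with 1 member higher in the VMH and 3 in the DMH. *Necab1* read 2069.8 and 2584 against 524 and 347, a difference of 2.44 (SE 0.28, adjusted p = 0.014). With all 8 arrays in the fit, *Necab1* (adjusted p = 0.295) and *Calb1* (0.609) did not pass, and *Calb1* did not with normexp background correction (0.0665). Of 54 regulators of G protein signaling, 49 were tested, 4 were higher in the VMH, and 3 were higher in the DMH. The count of 4 fell to 1 without VMH1, VMH2, or DMH2 and to 2 without DMH1, and the count of 3 was 2 without each array. *Rgs14* read 1610.0 and 1594 in the VMH and 396 and 301 in the DMH, a difference of 2.21 (SE 0.23, adjusted p = 0.0107). *Rgs10*, another gene of the family, read 4057 and 4602 in the DMH and 1479 and 1402 in the VMH, a difference of 1.59 (SE 0.21, adjusted p = 0.0211). The 2 genes were called in opposite directions. With 1 array left out, calls ended at an adjusted p of 0.165 without DMH1 for *Calb1*, 0.134 without VMH1 for *Camkv*, 0.177 without DMH2 for *S100a10*, and 0.0901 without DMH2 for *Rgs10*. The same held for the remaining G protein signaling genes higher in the VMH, at up to 0.11 without DMH2 for *Arpp21*, 0.15 without VMH1 for *Itpr1*, and 0.0908 without DMH2 for *Rgs11*. The dimmer probes of *Arpp21* pointed the same way without passing. The 3 genes of the calcium-binding list higher in the VMH became 1 with each array left out.

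Lists of hormone sensing, clock, and sirtuin genes gave few calls or none. Of 52 leptin, insulin, and fuel sensing genes, 47 were tested and only *Bdnf* and *Cnr1*, both in the VMH list too, were called, with a median of -0.07. Of 22 genes on a sex steroid list, 18 were tested and 1 was called in each direction. These were *Nr0b1* in the VMH and, in the DMH, *Cckar*, a cholecystokinin receptor gene placed on that list. The progesterone receptor gene *Pgr* read 3493 and 3196 in the VMH and 1607 and 2395 in the DMH. Both VMH arrays were the higher ones, but the difference of 0.77 did not pass (adjusted p = 0.257). Of 19 clock genes and 18 sirtuin and NAD genes tested, 0 were called by limma, and their medians were 0.05 and -0.09. At an unadjusted p under 0.05, 3 clock genes (2 higher in the VMH) and 2 sirtuin and NAD genes (1 in each direction) differed, and the methods' t-test also called 0 after adjustment. At 2 arrays a side, a difference of 4-fold was called for only 29% of simulated probes and one of 16-fold for 73%, so a smaller difference in these lists would mostly go without a call.

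Immediate early genes, which neurons switch on with activity or handling, lay higher in the DMH for most members without passing the test. Of 27 genes, 20 were tested, 1 was called in each direction, and the median was -0.89. *Fos* read 1459.8 on DMH1 and 1036 on DMH2, and 90.4 on VMH1 and 158 on VMH2, where 1 of the 2 was not well above background, a difference of 3.36 (SE 0.34, adjusted p = 0.00992). *Egr1* read 2946 and 1804 against 1033 and 879 and *Nr4a1* 4519 and 2131 against 966 and 921. Both were higher on the 2 DMH arrays but did not pass, with differences of 1.27 (adjusted p = 0.111) and 1.72 (adjusted p = 0.0947). Both DMH arrays were above both VMH arrays for 13 of the 20 genes (background 22% of all genes tested), and both VMH arrays were above for 2. For *Fosb*, *Egr1*, *Nr4a1*, and *Fos*, DMH1 was higher than DMH2. Without DMH2, *Nr4a1* and *Fosb* passed, at an adjusted p of 0.0217 and an adjusted p of 0.00994. Without scaling, 6 members passed in the DMH and 2 in the VMH. The member called in the VMH was *Bdnf*.

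No marker of glia or vessels passed the test on its brightest probe. Among the oligodendrocyte (15 tested), astrocyte (15), microglia (13), endothelial (12), and mural (10) lists, 0 members were called on their brightest probe, while a dimmer probe of the astrocyte gene *Gfap* was called higher in the DMH (1.25, adjusted p = 0.047). At an unadjusted p under 0.05, 1 gene each differed in the oligodendrocyte, astrocyte, endothelial, and mural lists and 0 in the microglia list. Medians ran from -0.36 to 0.31. Both DMH arrays were above both VMH arrays for 6 of 12 endothelial and 4 of 10 mural genes (background 22%), with 0 the other way in either list, and both VMH arrays were above for 6 of 13 microglia genes (background 29.1%), again with 0 the other way. Oligodendrocyte genes without overlap numbered 3 higher in the VMH and 1 in the DMH, and astrocyte genes 3 and 4. The summed scaled signal of the oligodendrocyte list was 43919 and 52566 in the VMH and 38064 and 39663 in the DMH, and that of the astrocyte list was 169193 and 156703 against 152938 and 147905. Among 12 general neuron genes, *Nefm* was higher in the VMH (adjusted p up to 0.0947 without DMH2), and the median was 0.46. In the tanycyte and ependymal list, *Crym* was higher in the VMH (1019.6 and 883 against 150.3 and 176) and *Gpr50* in the DMH, while the ependymal gene *Foxj1* and the tanycyte gene *Rax* were not well above background. For neighboring nuclei, 3 of 6 tested LH genes (*Hcrt*, *Pmch*, *Lhx9*), 4 of 6 tuberomammillary and premammillary genes (*Hdc*, *Slc18a2*, *Lhx9*, *Tac2*), 2 of 4 genes of the paraventricular, suprachiasmatic, and supraoptic nuclei (*Crh*, *Otp*), and 2 of 8 Arc genes (*Ghrh*, *Tac2*) were higher in the DMH, while *Nptx2* of the LH list and *Pomc* of the Arc list were higher in the VMH. The summed signal of the LH list was 48454 and 64864 in the VMH and 87882 and 77361 in the DMH. Most of the VMH sums came from *Nptx2* alone, which read 40689.6 and 57044 in the VMH and 11759 and 10972 in the DMH. Of the thalamus and zona incerta list, 1 of 7 tested (*Six3*, higher in the VMH) was called, and of the choroid plexus and blood list 0 of 6, with 4 higher in the DMH at an unadjusted p under 0.05. With 1 array left out, the LH count fell to 1 without VMH1 or VMH2, the tuberomammillary count to 1 without VMH1, VMH2, or DMH2, and the count of the paraventricular list to 0 without DMH1. The part of these neighboring cells in the differences above was not tested.

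**Figure D5:**
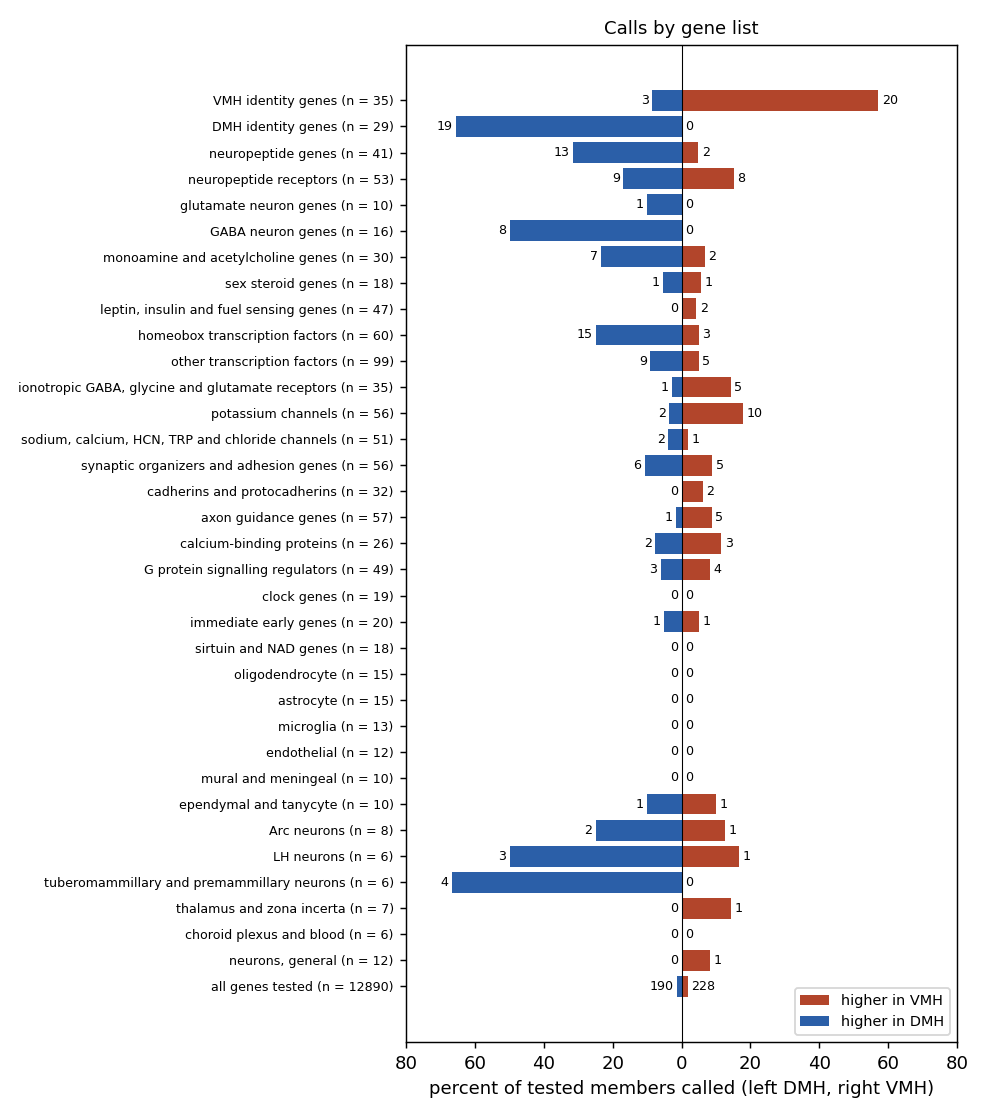
Percent of the tested members of each gene list with at least 6 of them (n in parentheses) that were called higher in the VMH (red, to the right) or in the DMH (blue, to the left), with the number of genes at each bar. The VMH and DMH identity lists lie on opposite sides, GABA, neuropeptide, and homeobox genes lie mostly to the left, potassium channels and ionotropic receptors mostly to the right, and the glial and vascular lists have no bar.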

How the data were processed

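The 8 laser-microdissected RNA samples were amplified by the authors as whole transcriptome before dye labeling and hybridized to 1-color Agilent mouse arrays of 55681 probes, and the deposited scanner files hold the processed intensity of each spot, background-subtracted by Feature Extraction (10.7.3.1 per the file headers, 11.5.1.1 per the labels). The red channel was used, as in the methods, although the labels name Cy3. The authors also deposited a table with 1 intensity per probe and array, on a linear scale, which served as an alternative.

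Spots flagged as outliers were removed, spots of a probe were averaged, and intensities were scaled to the 75th percentile of each array. Log2 values of the 28287 probes well above background on the array pair of either nucleus, or of both, were tested with limma 3.58.1 (lmFit and eBayes, R 4.3.3; 2 residual degrees of freedom) with Benjamini-Hochberg adjustment. The precision rests on 2 arrays per nucleus. Probe names came from RefSeq accessions in the scanner files, matched for 94.3% of the 28390 probes that carry one, and 2 probes were named by the study. The other probes are unnamed here, and a few named genes are not reported here. A gene was represented by its tested probe of highest mean signal. Genes named in the text were the 6 with the largest difference among probes measured on all 4 arrays and the 6 with the largest bound, per nucleus, up to 4 called genes per list and direction, the genes the study listed, and a few genes of each list chosen after their values were seen. Gene lists were of nucleus identity, peptides and receptors, transmitters, hormone and fuel sensing, transcription factors, channels, wiring, signaling, clock, activity, sirtuins, and other cells. Members and lists were chosen with earlier results of these data known. Alternatives were the other 4 arrays in the fit, scaling, background, filter, moderation, the methods' t-test, a replicate block, and leaving out each array. On simulated data for this comparison (28252 probes, 200 changed), 29% of probes changed 4-fold and 73% of those changed 16-fold were called, with 1 unchanged probe called.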

Additional observations from a re-analysis of the deposited data

How the results depend on the processing

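Counts of calls, against 377 higher in the VMH and 312 in the DMH, were within 1.5 times in most settings. Trended moderation gave 599 in the VMH. No scaling gave 682 in the DMH, and requiring all 4 arrays well above background 201. The methods' t-test gave 0 and 0 after adjustment (1830 and 1413 unadjusted, against 2195 and 2026 with limma). Leaving out 1 array gave 166 to 309 in the VMH and 200 to 380 in the DMH, and 42.2% and 35.2% of calls lay higher in the VMH without VMH1 and VMH2. A replicate block gave 1137 and 1113. The labels do not say that the numbers mark a mouse, and deviations of same-numbered arrays correlated at 0.263 over 2 pairs, so the pairing was not used. Under the block 13 named genes without a call passed, among them *Egr1*, *Nr4a1*, *Fosb*, *Slc17a6*, *Tac1*, *Rorb*, *Nkx2-1*, *Lmo3*, and *Nts*. The 44 and 59 probes at least 10-fold higher became 4 and 13 with normexp background correction, 19 and 28 with dim signals raised, 73 and 89 with no filter, 7 and 11 with all 4 arrays well above background, 68 in the VMH by geometric means, and 51 to 93 and 72 to 111 with 1 array left out. Of 144 called genes that were recomputed singly, 77 passed in every setting but the methods' t-test and none changed sign. Those lost numbered 18 with all 8 arrays in the fit, 31 with no filter, 13 without scaling (among them *Calb1*, *Cnr1*, *Gabra5*, *Pomc*, *Slit1*, and *Slit2*), and 16 with quantile normalization (among them *Crh*, *Npvf*, *Ramp3*, *Cacna2d1*, and *Nxph3*). The log2 difference, VMH minus DMH, changed sign for *Esr1* without VMH2 (-0.65 to 0.32 with 1 array left out), *Lepr* without DMH1 (-2.525 to 0.29), and *Sirt1* without VMH1 (-0.55 to 0.88) and without scaling (-0.043), and none of the 3 was called. Of 1258 list counts by setting, 276 were over 1.5 times from the value given. The causes were not tested. With 2 arrays a side and dim signals near background, small differences are mostly beyond reach, and a ratio over a dim signal depends on the floor.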

Other observations

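Some small gene families outside the lists were looked at after their values were seen, so their counts are a description. Of 9 tested laminin genes, which encode chains of the basement membrane, 3 were higher in the VMH. *Lama1* read 1742 and 1630.0 in the VMH and 100.4 and 157 in the DMH, where 1 array was not well above background, a difference of 3.75 (SE 0.28, adjusted p = 0.0044), and *Lama3* 157 and 223 against 56.8 and 57.9. The remaining one was *Lamb3*. The family median was -0.02, so most other laminins did not follow. Of 13 tested genes grouped by symbol as calcium/calmodulin kinases, 4 were higher in the VMH. This group also held the kinase inhibitor genes *Camk2n1* and *Camk2n2*, neither of them called. *Camkk2*, an upstream kinase, read 17588 and 18437 against 4742 and 5564, a difference of 1.81 (SE 0.21, adjusted p = 0.015). *Camk1d*, a target of that kinase, read 3334 and 2996 against 785 and 928, a difference of 1.89 (SE 0.22, adjusted p = 0.014). *Camk1g* and *Camkv* were the other 2, and 3 of the 4 passed without scaling. Both VMH arrays were above both DMH arrays for each.

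Of 4 tested receptor genes of the GDNF family, 2 were higher in the DMH. *Ret*, the signaling receptor, read 407 and 463 in the DMH and 50.2 and 65.7 in the VMH, at least 4.18-fold higher, and its partner *Gfra1* read 1042 and 1092 against 354 and 319, a difference of 1.67 (SE 0.21, adjusted p = 0.0176). Of 23 tested keratin genes, *Krt18* and *Krt9* were higher in the VMH and *Krt90* in the DMH (358 and 382 against 28.3 and 48.6, at least 3.56-fold).

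For 14 list genes a dimmer probe was called and the brightest was not. The dimmer probe was higher in the DMH for *Nrxn3* (3.70), *Cacna1g* (1.59, with 1 VMH array not well above background), *Oprm1* (1.41), and *Gfap* (1.25) on the log2 scale. That of *Nxph4* (at least 4.47-fold), *Gnas* (at least 2.82-fold), *Crhr1* (at least 1.56-fold), *Pde11a* (at least 1.24-fold), *Zic1* (at least 1.65-fold), and *Npb* (a pair of probes, at least 4.73-fold and 5.31-fold) was higher in the DMH too and not well above background in the VMH. It was higher in the VMH for *Rxrg* (1.75), *Vax1* (1.61), *Sema3a* (1.58), and *Homer1* (1.49). For *Gnas* and *Oprm1* the brightest probe pointed the other way. Probes without a gene name made up 93 of the 377 probes higher in the VMH and 70 of the 312 higher in the DMH.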
